A study of Mus musculus with 6 samples.

Results

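The small interferon-induced genes Ifi44, Ifi44l, Ifi27, Ifi27l2a, Ifi35, Nmi, Xaf1, Phf11b, Phf11d and Rtp4 were examined in bone-marrow-derived macrophages (BMDMs). They were selected by name, 10 genes in all, of which 9 are among the 22248 genes listed in the expression table. Ifi44l is not listed there, so its level was not analysed here. The selection was made with the difference between the genotypes already known, so the values of the 9 genes are given as a description, without p-values, and counts of them past a threshold are no evidence of a difference.

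BMDMs are macrophages grown from bone marrow cells in culture with macrophage colony-stimulating factor. RNA was sequenced from 3 libraries of control Lyz2 cre mice and 3 libraries of Cited2 fl/fl:Lyz2 cre mice, called CITED2-deficient below. All were C57BL/6 mice labelled as postnatal week 10, and the cells were not stimulated. Both genotypes carry Cre in the Lyz2 locus, which is active in myeloid cells, so deletion of the floxed Cited2 allele is directed to cells that express Lyz2 and their progeny. CITED2 is a nuclear cofactor that binds the coactivators CBP and p300, and the comparison asks how its loss changed gene expression in macrophages. Nothing states whether the libraries of a genotype came from separate cultures or animals, so p-values measure the spread between these libraries, which may be technical. Values are FPKM, the fragments of a gene divided by transcript length and library size, and recovered depth was 17289286 to 18952077 fragments in control and 22583995 to 26100410 in CITED2-deficient libraries.

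Type I interferons bind the receptor IFNAR1-IFNAR2, which activates the kinases JAK1 and TYK2. A complex with STAT2 and IRF9 then binds interferon-stimulated response elements (ISREs) in the promoters of responsive genes, while interferon gamma acts on gamma-activated sites (GAS). Macrophages keep a low level of this signalling at rest. The genes described here are downstream products of that pathway with small or little-studied proteins, and several of them feed back on it or restrict viruses.

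The targeted gene checked the labels. Cited2 was at 71.7, 79.3 and 75.5 FPKM in control libraries and at 9.27, 7.22 and 7.53 FPKM in CITED2-deficient libraries, a log2 fold change of -3.09 ± 0.08 (standard error) with an adjusted p of 6.57e-09 by limma. Some Cited2 RNA thus remained in every CITED2-deficient library. All 6 macrophage markers were over 1 FPKM on average, and their summed level was 5288 to 5344 FPKM in control and 4942 to 5040.1 FPKM in CITED2-deficient libraries. They did not move together, with 1 higher (Fcgr1, an Fc receptor for IgG, 172 to 482 FPKM), 4 lower (among them Itgam, 89.7 to 50.9 FPKM) and 1 not past the limma threshold. Across 11687 tested genes, 5994 (51.3%) passed the threshold, an adjusted p under 0.05, and the median log2 fold change was -0.10.

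Of the 9 listed genes, 8 were higher in CITED2-deficient BMDMs and 1, Ifi27, was lower. Ifi44 rose from 4.60 to 103 FPKM on average, Phf11d from 12.2 to 79.3 and Phf11b from 18.2 to 91.9, while Ifi27 fell from 95.4 to 32.5 FPKM. All 9 passed the limma threshold, 8 upward against 16.7% of all tested genes and 1 downward against 34.6%. In all 9 the libraries of the genotypes did not overlap, against 59.9% of tested genes, with 8 higher (19.0% of tested genes) and 1 lower (40.9%). A change of at least 2-fold on the log2(FPKM + 1) scale that also passed the threshold was found for 7 of the 9 upward, all but Nmi of the 8 higher genes, against 3.72% of tested genes, and for Ifi27 downward, against 1.54%. Their median log2 fold change was 1.97. Since the genes were selected on this contrast, nothing is read from these counts. In bulk RNA, a change in the number of cells that express a gene and a change of RNA per cell cannot be told apart.

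**Figure D1:**
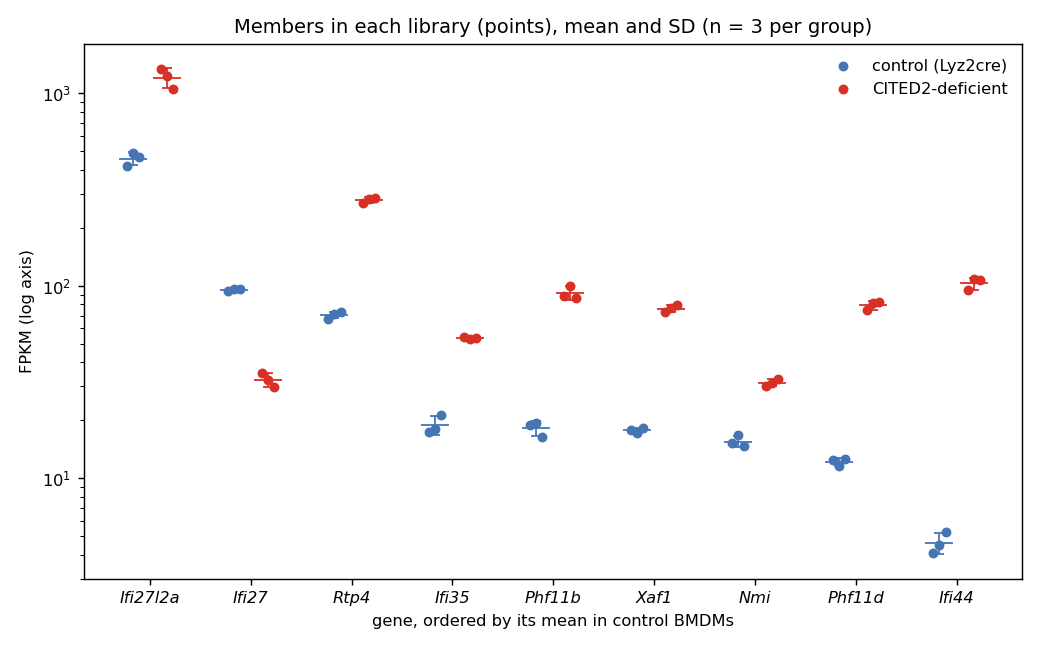
Level of the 9 listed genes in FPKM (log axis) in each of the 6 libraries, with control in blue and CITED2-deficient in red, and bars at the mean with SD (n = 3 libraries per group). The red points lie above the blue points for 8 genes, and below them for Ifi27, at 32.5 against 95.4 FPKM.

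Sequence around the start of transcription was taken from RefSeq (mouse build GRCm38.p6, the same coordinates as mm10), which held a promoter for 6 of the 9 listed genes, Ifi44, Ifi35, Nmi, Xaf1, Phf11b and Phf11d. Ifi27, Ifi27l2a and Rtp4 had no entry in the table used. The 75 bases before and 25 bases from the start are shown for these 6 genes and for Phf11a, a neighbour of Phf11b, to show where letters match an interferon-type motif and, in Nmi, where none does. Capitals mark a pair of GAAA copies 1 to 3 bases apart, on either strand.
Phf11b, chr14:59341306-59341405, reverse strand: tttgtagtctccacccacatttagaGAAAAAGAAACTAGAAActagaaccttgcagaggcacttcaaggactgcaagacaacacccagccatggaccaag
Phf11a, chr14:59297498-59297597, reverse strand: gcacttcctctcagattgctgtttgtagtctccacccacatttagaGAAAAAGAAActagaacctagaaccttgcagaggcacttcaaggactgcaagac
Phf11d, chr14:59365466-59365565, reverse strand: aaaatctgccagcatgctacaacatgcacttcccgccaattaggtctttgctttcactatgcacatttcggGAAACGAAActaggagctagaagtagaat
Ifi44, chr3:151749886-151749985, reverse strand: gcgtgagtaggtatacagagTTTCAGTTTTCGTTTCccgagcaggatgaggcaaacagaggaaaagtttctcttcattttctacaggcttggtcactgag
Ifi35, chr11:101448337-101448436, forward strand: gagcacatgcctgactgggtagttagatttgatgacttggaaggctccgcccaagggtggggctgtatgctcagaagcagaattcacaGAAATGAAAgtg
Xaf1, chr11:72301554-72301653, forward strand: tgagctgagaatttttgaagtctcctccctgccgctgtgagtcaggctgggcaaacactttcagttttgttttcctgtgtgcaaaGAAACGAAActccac
Nmi, chr2:51973184-51973283, reverse strand: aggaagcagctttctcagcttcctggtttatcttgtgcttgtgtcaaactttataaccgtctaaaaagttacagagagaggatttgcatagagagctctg

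In Phf11b the capitals hold GAAAAAGAAA, which matches the core of the ISRE (GAAANNGAAA, both strands searched) and starts 50 bases before the start of transcription. It was the only 1 of the 6 promoters to hold that core within 250 bases before and 50 bases after the start, while 3.44% of 32851 mouse promoters of the same length did. Phf11a held the same letters 29 bases before its start. The Phf11a and Phf11b promoters were identical at 274 of 279 aligned bases (98.2%), and those of Phf11b and Phf11d at 77.0%.

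The GAS (TTCNNNGAA) was also present in 1 of the 6 promoters, that of Ifi35, where TTCACAGAA starts at base 8 of the transcript and overlaps the GAAA pair printed above. Of all promoters, 8.30% held it. When the spacing was relaxed to GAAANGAAA, GAAANNGAAA or GAAANNNGAAA, a choice made after the sequences had been seen, 5 of the 6 promoters had a match against 8.61% of all promoters. Phf11d has further pairs at bases 29 and 36 of the transcript, past the end of the printed stretch. Nmi was the 1 of these 6 promoters with no such pair. The outermost annotated start of Nmi, at 51973494, lies outside the stretch searched (chr2:51973159-51973458), so the sequence there was not covered. The promoter of Ifi44l, the selected gene without expression values, was searched as well and held no ISRE core, GAS or looser pair. These motifs overlap each other by construction, and a match of letters is no measurement of binding.

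**Figure D2:**
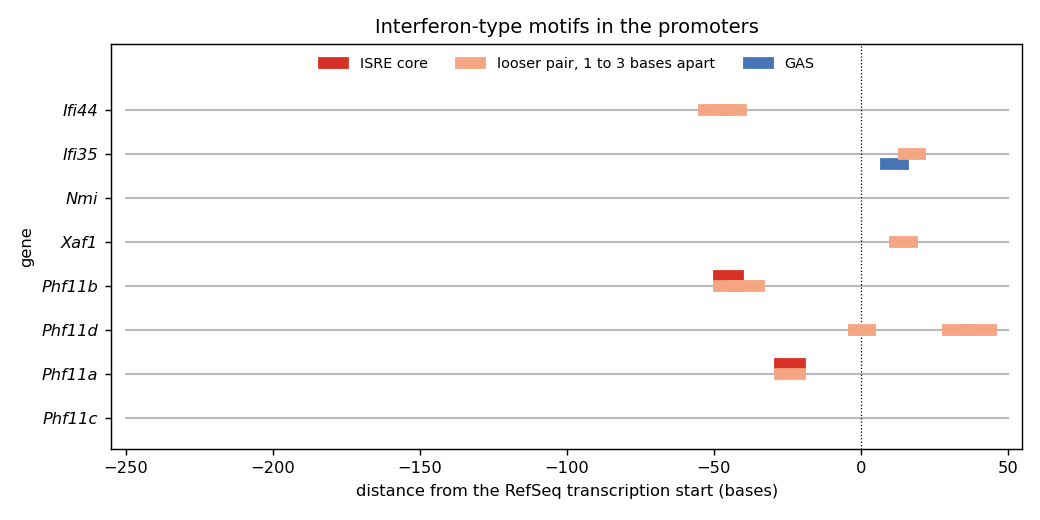
Position of each motif match (coloured boxes) relative to the RefSeq transcription start, in bases, in the promoters (grey lines, 250 bases before to 50 after) of 6 of the genes and of Phf11a and Phf11c. The ISRE core (red) is seen in Phf11b and Phf11a, the GAS (blue) in Ifi35, and the looser GAAA pair (orange) in all but Nmi and Phf11c. For Nmi and Phf11c the outermost annotated start of the gene lies upstream of the stretch searched.

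Ifi44 encodes a cytoplasmic protein with a GTP-binding domain that has been described as dampening interferon responses through FKBP5. Ifi44 (ENSMUSG00000028037, chr3:151730922-151749960, reverse strand) was at 4.07, 4.51 and 5.23 FPKM in control libraries and at 94.5, 108 and 107 FPKM in CITED2-deficient libraries. The lowest CITED2-deficient library was thus far above the highest control library. The means of 4.60 ± 0.588 and 103 ± 7.40 FPKM (SD, n = 3 each) differed 22.4-fold, with a log2 fold change of 4.22 ± 0.08 (standard error). The control values rest on 152 to 196 fragments, the fewest of any of the 9 genes, and the CITED2-deficient values on 4746 to 5511. Fkbp5, which encodes the immunophilin partner, was at 3.14 ± 0.600 and 3.21 ± 0.415 FPKM (SD, n = 3 each) and did not pass the limma threshold (adjusted p = 0.866).

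Ifi27 and Ifi27l2a belong to the ISG12 family of small hydrophobic proteins found at mitochondria and the nuclear envelope. They lie 1927 bases apart on chromosome 12, on opposite strands, and moved in opposite directions. Ifi27 (ENSMUSG00000064215, chr12:103434211-103440239, forward strand) was at 93.8, 96.6 and 95.7 FPKM in control libraries and at 35.1, 32.5 and 29.9 FPKM in CITED2-deficient libraries. Every CITED2-deficient library was below every control library, 2.93-fold on average, with a log2 fold change of -1.53 ± 0.05 (standard error).

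Ifi27l2a (ENSMUSG00000079017, chr12:103442167-103443680, reverse strand) was at 419, 487 and 468 FPKM in control libraries and at 1335, 1231 and 1048 FPKM in CITED2-deficient libraries. It was the most abundant of the 9 genes in every library and supplied 58.1% to 65.6% of their summed FPKM. The means of 458 ± 35.1 and 1205 ± 145 FPKM (SD, n = 3 each) differed 2.63-fold, with a log2 fold change of 1.39 ± 0.08 (standard error). Its SD in CITED2-deficient libraries was 12.1% of the mean, the widest of the 9 genes in that genotype.

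Because both genes were measured in the same libraries, their ratio does not depend on scaling between libraries. Ifi27l2a over Ifi27 was 4.47, 5.04 and 4.89 in control libraries and 38.1, 37.8 and 35.0 in CITED2-deficient libraries. The ratio was 7.70-fold higher on average, and its values did not overlap between genotypes. No stretch of 50 bases in annotated Ifi27 transcripts occurs in another gene, and 0.483% of such stretches of Ifi27l2a are shared, all with Ifi27l2b. Ifi27l2b, a paralogue, had 3 fragments in CITED2-deficient replicate 1 and 0 in the other libraries. Nr4a1, encoding the orphan nuclear receptor that ISG12 proteins have been described to move out of the nucleus, was at 5.50 ± 0.385 FPKM in control and 1.89 ± 0.123 FPKM in CITED2-deficient libraries (SD, n = 3 each). It fell by 1.17 on the log2 scale (adjusted p = 1.03e-05, limma).

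IFP35, the product of Ifi35, and NMI bind each other, and both can be released from macrophages and act through the receptor TLR4. Ifi35 (ENSMUSG00000010358, chr11:101448407-101458698, forward strand) was at 17.3, 18.0 and 21.4 FPKM in control libraries and at 54.0, 53.2 and 53.6 FPKM in CITED2-deficient libraries. The genotypes were well apart, and control replicate 3 was the highest of the controls. The log2 fold change was 1.46 ± 0.07 (standard error), and the means differed 2.83-fold. An antisense gene, Gm11626, shares 10.4% of the 50-base stretches of Ifi35. It was at 0 to 0.521 FPKM in control and 0.591 to 1.86 FPKM in CITED2-deficient libraries, far below Ifi35.

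Nmi (ENSMUSG00000026946, chr2:51948487-51973494, reverse strand) was at 15.2, 16.7 and 14.7 FPKM in control libraries and at 30.3, 31.1 and 32.8 FPKM in CITED2-deficient libraries. It changed least among the 9 genes, 2.02-fold between means, with a log2 fold change of 0.97 ± 0.06 (standard error), and its libraries still did not overlap. Within libraries Ifi35 over Nmi was 1.14, 1.08 and 1.45 in control and 1.78, 1.71 and 1.63 in CITED2-deficient BMDMs, so the 2 partner genes did not change in proportion. Tlr4 was at 78.7 ± 2.34 and 93.5 ± 4.80 FPKM (SD, n = 3 each), and its log2 fold change of 0.25 passed the limma threshold (adjusted p = 0.00149).

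XAF1 antagonises XIAP, an inhibitor of caspases. Xaf1 (ENSMUSG00000040483, chr11:72301629-72313733, forward strand) was at 17.9, 17.2 and 18.2 FPKM in control libraries and at 72.9, 76.2 and 79.3 FPKM in CITED2-deficient libraries. The means of 17.8 ± 0.502 and 76.1 ± 3.19 FPKM (SD, n = 3 each) differed 4.28-fold, with a log2 fold change of 2.04 ± 0.04 (standard error). Its spread between control libraries was 2.82% of the mean, against a difference of several fold between genotypes. Xiap itself was at 41.4 ± 0.943 and 40.8 ± 0.217 FPKM (SD, n = 3 each) and did not pass the limma threshold (log2 fold change -0.02 ± 0.04, adjusted p = 0.710).

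Phf11b and Phf11d encode proteins with a PHD zinc finger, a fold that in other proteins reads histone tails. They lie 6055 bases apart on the reverse strand of chromosome 14, between their paralogues Phf11a and Phf11c. Phf11d (ENSMUSG00000068245, chr14:59347407-59365470) was at 12.5, 11.5 and 12.6 FPKM in control libraries and at 74.6, 81.3 and 82.1 FPKM in CITED2-deficient libraries. After Ifi44 it showed the highest log2 fold change of the 9 genes, 2.61 ± 0.05 (standard error), or 6.51-fold between means.

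Phf11b (ENSMUSG00000091649, chr14:59320964-59341351) was at 18.9, 19.4 and 16.3 FPKM in control libraries and at 88.6, 100.3 and 86.9 FPKM in CITED2-deficient libraries, without overlap. The means of 18.2 ± 1.67 and 91.9 ± 7.32 FPKM (SD, n = 3 each) differed 5.05-fold, with a log2 fold change of 2.28 ± 0.07 (standard error). Of its 50-base stretches, 47.0% also occur in other genes, mostly Phf11a (26.0%) and Phf11c (18.4%), against 8.09% for Phf11d. Recovered fragments of Phf11b were whole numbers, which does not show how fragments from shared stretches were assigned or dropped. The level of Phf11b is uncertain to that extent.

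Phf11a was at 2.97, 3.25 and 3.55 FPKM in control libraries and at 18.8, 21.6 and 18.6 FPKM in CITED2-deficient libraries, a log2 fold change of 2.28 ± 0.08 (adjusted p = 4.88e-08, limma). Phf11c was at 0.948, 0.702 and 0.793 FPKM in control and 1.40, 1.42 and 1.37 FPKM in CITED2-deficient libraries, 0.40 ± 0.13 on the log2 scale (adjusted p = 0.0293, limma). Phf11c was under 1 FPKM in every control library and passed the filter only through the CITED2-deficient ones, so its call is no support, and its log2 fold change was 0.72 with a pseudocount of 0.1. The call was also lost with each library left out in turn (adjusted p 0.0656 to 0.0761) except control replicate 1. The same order by FPKM, Phf11b over Phf11d over Phf11a over Phf11c, held in each of the 6 libraries. By fragments Phf11d was above Phf11b in every library (474, 401 and 479 against 422, 398 and 366 in control). The order of Phf11b and Phf11d thus depends on the transcript lengths used, and stretches shared between the paralogues limit it further. Of the 7 paralogues of the selected genes considered, 3 were listed, and Phf11a and Phf11c were tested.

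RTP4 is a chaperone of G-protein-coupled receptors that restricts RNA viruses and has been described as acting on the kinase TBK1. Rtp4 (ENSMUSG00000033355, chr16:23520291-23614222, forward strand) was at 67.3, 71.3 and 72.9 FPKM in control libraries and at 268, 283 and 286 FPKM in CITED2-deficient libraries. The libraries of each genotype lay close together and the genotypes far apart. The means of 70.5 ± 2.89 and 279 ± 9.59 FPKM (SD, n = 3 each) differed 3.95-fold, with a log2 fold change of 1.97 ± 0.04 (standard error). Tbk1 was at 107 ± 0.880 FPKM in control and 107 ± 2.46 FPKM in CITED2-deficient libraries (SD, n = 3 each) and did not pass the limma threshold (adjusted p = 0.939), although it did with median-ratio scaling between libraries, at 0.10 on the log2 scale.

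The order of the genes by FPKM, a level per transcript length, differed between the genotypes. In control BMDMs it ran Ifi27l2a (458), Ifi27 (95.4), Rtp4 (70.5), Ifi35 (18.9), Phf11b (18.2), Xaf1 (17.8), Nmi (15.5), Phf11d (12.2) and Ifi44 (4.60 FPKM). Neighbours in this order overlapped between libraries only for Ifi35 with Phf11b and Phf11b with Xaf1. In CITED2-deficient BMDMs Ifi44 moved from place 9 to place 3 (103 FPKM), where it overlapped Phf11b (91.9), and Ifi27 moved from place 2 to place 8 (32.5), where it overlapped Nmi (31.4). Phf11d (79.3) and Xaf1 (76.1 FPKM) overlapped as well, and the other neighbours did not. The order depends on the mean transcript length used for each gene.

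**Figure D3:**
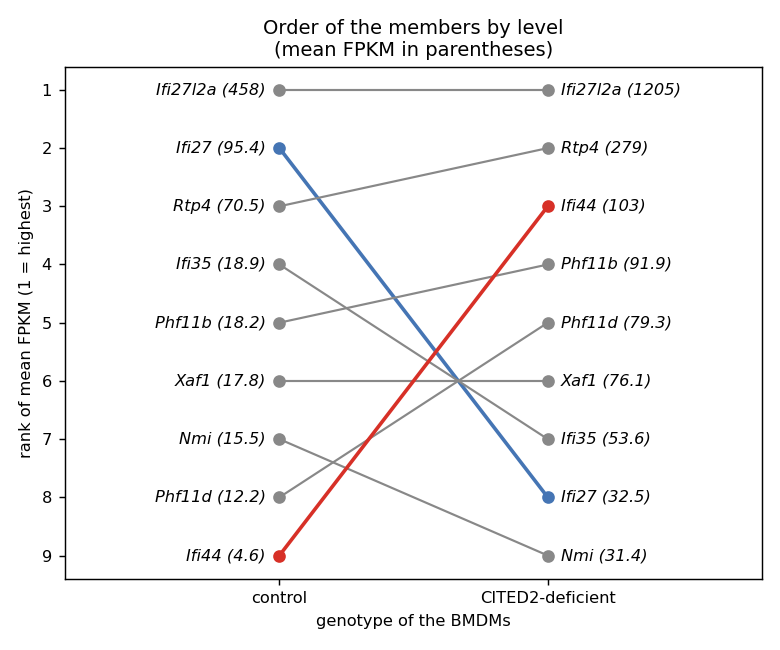
Rank of the 9 genes by mean FPKM (1 is the highest; mean FPKM in parentheses, n = 3 libraries per genotype) in control and CITED2-deficient BMDMs, with a line for each gene. Ifi44 (red) goes from 4.60 FPKM and place 9 to 103 FPKM and place 3, and Ifi27 (blue) from 95.4 FPKM and place 2 to 32.5 FPKM and place 8.

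No library of the CITED2-deficient genotype was uniformly highest. Replicate 1 was the lowest of its genotype for 5 genes (Ifi44, Nmi, Xaf1, Phf11d and Rtp4) and the highest for 3 (Ifi27, Ifi27l2a and Ifi35). The summed FPKM of the 9 genes was 666, 742 and 725 in control libraries and 2053, 1996 and 1806 in CITED2-deficient libraries. The sum was thus higher in every CITED2-deficient library, by an amount set largely by Ifi27l2a.

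Fibroblast markers, mainly collagens, also differed between the genotypes, with a summed level of 42.0 to 50.1 FPKM in control and 169.8 to 539 FPKM in CITED2-deficient libraries. Of 7 such markers 6 were tested and all 6 were higher. Among all tested genes 16.7% were higher and 34.6% lower. Pdgfrb was at 0.876 to 0.987 FPKM in control and 2.08 to 3.03 FPKM in CITED2-deficient libraries. It passed the filter only through the CITED2-deficient ones, so its call is no support. Of these markers replicate 1 carried the most, with Col1a1 at 305 FPKM against 62.0 and 62.6 FPKM in the other CITED2-deficient libraries. Lum was near 0 in all libraries (0.0783 to 0.281 FPKM). Without that library the median log2 fold change of the 9 genes was 2.00, but Col1a1 was still above the 14.2 to 16.6 FPKM of control libraries in the remaining ones. The part of fibroblasts in the values was not tested. Plasmacytoid dendritic cells, known as strong interferon producers, had 1 of 6 markers over 1 FPKM, the broadly expressed Tcf4, and summed levels of 97.5 to 105 FPKM in control and 93.7 to 98.3 FPKM in CITED2-deficient libraries. Of the 7 granulocyte markers 1 was higher, 5 were lower and 1 did not pass the limma threshold. Mpo (16.2 to 1.95 FPKM, 8.31-fold lower) and Elane (12.4 to 2.15 FPKM, 5.74-fold lower), granule enzymes of early precursors, fell most, Camp went from 47.0 to 23.1 FPKM, and Ltf rose 1.88-fold. Their summed levels, 726 to 795 FPKM in control and 658 to 777 FPKM in CITED2-deficient libraries, are carried mainly by S100a8, S100a9 and Ngp and do not show these changes. The part of granulocyte precursors in the values was not tested either. The summed levels of conventional dendritic cell, B cell and T or NK cell markers were at most 3.29 FPKM in any library.

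The interferon pathway upstream of these genes was taken from a list of 43 genes, of which 24 were listed and 21 tested. Of these, 9 were higher in CITED2-deficient BMDMs, 7 were lower and 5 did not pass the limma threshold, against 16.7% higher and 34.6% lower among all tested genes. The share of lower genes was thus near that of all genes. The median log2 fold change was 0.11. The 9 higher genes include Socs1, whose call is no support, as given below. At a mean FPKM of at least 5, where Socs1 was not tested, 8 were higher and 7 lower. With median-ratio scaling between libraries, which moved the split of all calls from 32.5% to 50.5% higher, the list had 12 higher and 5 lower genes.

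Among 21 ligand genes 2 were listed and none reached the mean FPKM of 1 needed for the test. Ifnb1, encoding interferon beta, had 0 fragments in each control library and 5, 2 and 5 fragments in the CITED2-deficient libraries, too few for a fold change. Of 5 tested receptor genes 4 were lower and none higher. Ifngr1, encoding a chain of the interferon gamma receptor, fell from 250.1 ± 3.59 to 132 ± 3.88 FPKM (SD, n = 3 each; log2 fold change -0.92, adjusted p = 3.02e-08, limma). Ifnar1 (-0.27, adjusted p = 0.000270) and Ifnar2 (-0.30, adjusted p = 4.65e-05) were lower by less on the log2 scale, and Il10rb (-0.19, adjusted p = 0.00136) lost its call with median-ratio scaling (-0.10). Ifngr2 did not pass (0.02, adjusted p = 0.617), although with median-ratio scaling it passed at 0.12.

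The transcription factors carried most of the rises, with 6 of 8 higher and 1 lower. Irf7, the main factor for interferon alpha genes, was at 74.2, 66.4 and 80.4 FPKM in control and 775, 839 and 835 FPKM in CITED2-deficient libraries (log2 fold change 3.46, adjusted p = 8.88e-10, limma). Of the factors that bind the ISRE together, Stat2 rose from 59.3 to 257 FPKM (2.10, adjusted p = 1.45e-09) and Irf9 from 41.9 to 67.3 FPKM (0.67, adjusted p = 1.73e-06). Irf3 was lower (-0.39, adjusted p = 0.000239), and Irf8 did not pass (-0.02, adjusted p = 0.634). Irf1 (0.84), Irf2 (0.33) and Irf5 (0.26 on the log2 scale) were higher.

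Kinases changed little. Jak2 was higher by 0.29 on the log2 scale (adjusted p = 0.00455), Jak1 was lower by a log2 fold change of -0.11 (adjusted p = 0.00787), a call lost with median-ratio scaling (-0.01) and without the variance trend, and Tyk2 did not pass (0.11, adjusted p = 0.0929). Tyk2 passed with median-ratio scaling (0.20), quantile normalization and voom on recovered fragments. Among the 5 inhibitors, Usp18, which displaces JAK1 from IFNAR2, rose from 21.9 ± 2.62 to 112 ± 5.30 FPKM (SD, n = 3 each; log2 fold change 2.30, adjusted p = 2.58e-08, limma). Socs1 was at 0.587 ± 0.0761 FPKM in control and 1.67 ± 0.364 FPKM in CITED2-deficient libraries (SD, n = 3 each; log2 fold change 0.74, adjusted p = 0.00282, limma). It was under 1 FPKM in every control library and passed the filter only through the CITED2-deficient ones, so its call is no support. Its log2 fold change was 1.35 with a pseudocount of 0.1. Pias1 was lower (-0.26, adjusted p = 0.00277), and Socs3 and Ptpn2 did not pass (adjusted p = 0.677 and 0.134). Ptpn2 passed with median-ratio scaling (0.25) and quantile normalization.

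**Figure D4:**
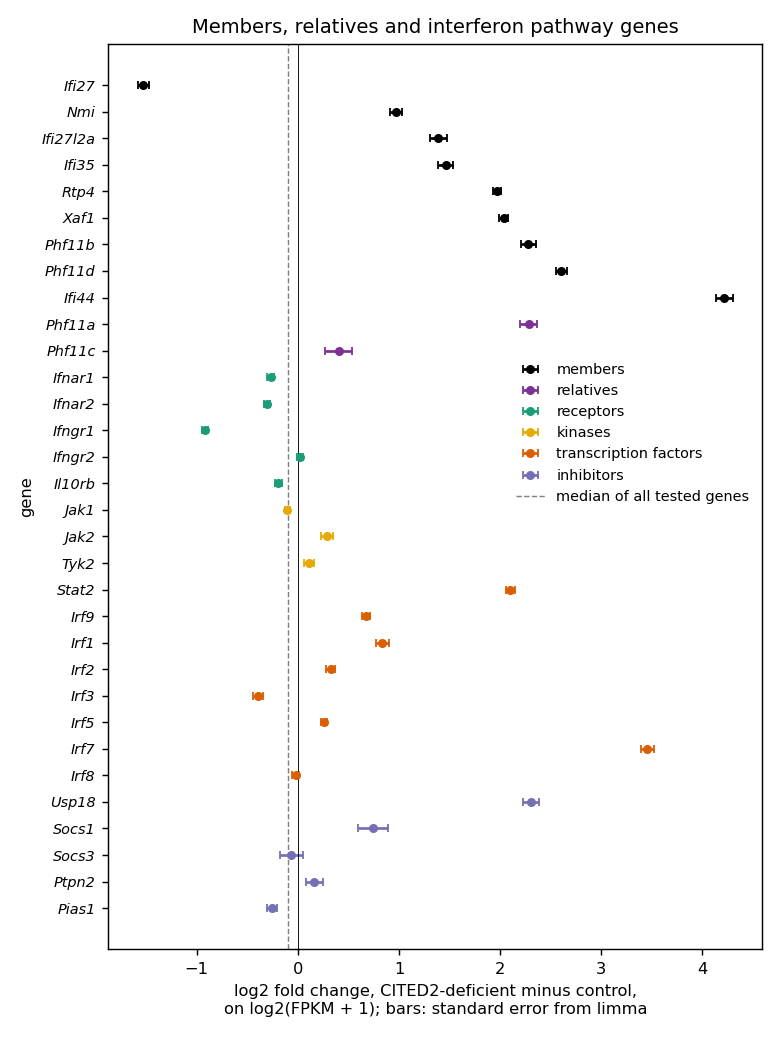
Log2 fold change between CITED2-deficient and control BMDMs on log2(FPKM + 1), with standard errors from limma (n = 3 libraries per genotype), for the 9 genes (black), their paralogues and the tested interferon pathway genes by role. The black points lie from -1.53 (Ifi27) to 4.22 (Ifi44), while all 5 receptors lie between -0.92 and 0.02, and the dashed line marks the median of all tested genes at -0.10.

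Position along the chromosome was examined with the nearest tested protein-coding gene on each side, 14 genes in all. Of these 6 were higher, 3 were lower and 5 did not pass the limma threshold. Among all tested genes 16.7% were higher and 34.6% lower, 51.3% in either direction. Under the alternatives run, 4 to 8 of the flanking genes were higher. The 6 include Phf11a and Phf11c, paralogues of Phf11b and Phf11d, and the call of Phf11c is no support, as given above. The count is not read as a result about position. At least 2-fold changes were seen in Phf11a, described above, and in Serpina3g, encoding a serine protease inhibitor, which was at 1.03, 1.18 and 0.915 FPKM in control and 4.30, 5.87 and 4.30 FPKM in CITED2-deficient libraries (4.64-fold between means, adjusted p = 1.86e-05). Serpina3g lies 792564 bases beyond Ifi27l2a. Vat1, on the opposite strand with its 3′ end 46 bases from that of Ifi35, went the other way from it (log2 fold change -0.29, adjusted p = 5.75e-05), and so did St6gal1 next to Rtp4 (-0.89, adjusted p = 2.17e-07). These 2 genes were named after their values were seen.

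The genes outside the selection whose level across the 6 libraries was most like the mean standardised profile of the 9 genes were H2-Q6, Cd69, H2-T23, Ifit3 and Pdgfc, with Pearson's r of 0.99943 (Pdgfc) to 0.99977 (H2-Q6). With 2 separate genotypes of 3 libraries, such values mainly read the difference between them. H2-Q6 and H2-T23 encode non-classical MHC class I molecules, a family of near-identical copies whose fragments are hard to assign. H2-Q6 was at 6.01, 6.75 and 6.37 FPKM in control and 72.8, 75.2 and 73.9 FPKM in CITED2-deficient libraries. Ifit3, encoding an interferon-induced antiviral protein, was at 33.2, 35.8 and 37.7 FPKM in control and 386, 429 and 415 FPKM in CITED2-deficient libraries. Cd69, an activation marker, was at 0.317 to 0.379 and 2.45 to 2.54 FPKM, and Pdgfc, a growth factor, at 2.59 to 2.95 and 9.04 to 9.54 FPKM in control and CITED2-deficient libraries. Cd69 was thus far below 1 FPKM in every control library. It entered the tested genes only through the CITED2-deficient ones, so its place in this ranking is no support. Among the selected genes r ranged from 0.9890 (Ifi27l2a) to 0.9993 (Rtp4), and was -0.9944 for Ifi27.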

How the data were processed

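The authors depleted ribosomal RNA, sequenced stranded total RNA libraries, mapped reads to mm10 with STAR and deposited FPKM per gene and library from Cuffdiff with GENCODE annotation. Replicates were not pooled, and versions were not given in the sources used here. FPKM are scaled to library size, so strongly changed genes can shift others. Fragments were recovered with mean transcript lengths of GENCODE vM21, and 96.1% of 22239 matched genes came out whole within 0.02 in all 6 libraries.

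Genes with a mean of at least 1 FPKM (11687) entered limma 3.58.1 (R 4.3.3) as log2(FPKM + 1), with a trended variance. Their p-values were adjusted over all of them by Benjamini-Hochberg. The fit was first run on simulated data with far fewer changed genes than were called here. That run does not cover data with this many changes. Folds on the log2(FPKM + 1) scale understate changes of low genes. Genes and lists were chosen with earlier results of these data known. The text names all listed selected genes, Cited2, pathway genes, paralogues, partners, flanking genes changed at least 2-fold and the 5 most alike genes. Alternatives were other pseudocounts, filters, scalings, limma without trend, array weights, a replicate block, and each library left out. Voom on recovered fragments and the looser motif were chosen after seeing the data. Promoters came from RefSeq GRCm38.p6. Some pathway results are not reported here.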

Additional observations from a re-analysis of the deposited data

How the results depend on the processing

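The 9 listed genes were chosen on this contrast, so that they kept their direction under the alternatives is no sign of stability. These were 2 smaller pseudocounts, other filters on low values, quantile or median-ratio scaling, an untrended variance, array weights, the replicate block, each library left out and voom on recovered fragments. Voom gave 6186 calls over all genes against 5994. Log2 fold changes ranged from 4.15 to 4.48 for Ifi44, -1.58 to -1.43 for Ifi27 and 1.94 to 2.06 for Rtp4. The median over the 9 genes was 1.97, 2.06 with median-ratio scaling and 1.94 to 2.00 with a library left out. Of the paralogues, 2 passed, against 1 with a mean FPKM of at least 5, where Phf11c was not tested, 1 with the replicate block, where Phf11c lost its call, and 1 to 2 with a library left out. Same-numbered libraries hardly deviated together (r 0.00784 to 0.0402), against -0.0521 to 0.0354 for the other pairs. This is no sign of pairing by number and cannot exclude it. The replicate block gave 5708 calls. The share of higher calls was 32.5%, 42.0% with quantile normalization (5390 calls) and 50.5% with median-ratio scaling (5200 calls). The median of all genes then moved from -0.10 to -0.01. With the looser GAAA spacing 5 promoters had a motif, and with 150 bases before the start 1 still held the ISRE core. With 3 libraries a group, an exact permutation test cannot go below 0.1. The low control counts of Ifi44 limit the precision of its fold change.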
